A study of Mus musculus with 7 samples.

Results

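Chromatin remodellers are multi-subunit machines that use ATP to slide, eject or exchange nucleosomes, and the genes for their subunits were examined for open chromatin. The family comprised the protein-coding genes whose symbols name subunits of the BAF (SWI/SNF), ISWI, NuRD, CHD and INO80 complexes, or carry the related ARID and bromodomain names, in the RefSeq table of mouse build GRCm38.p6. This gave 62 genes out of 21883 protein-coding genes. The assay was ATAC-seq, which reads accessible DNA by transposase insertion. The cells were neural progenitors positive for CD15, from dorsal telencephalon of CD-1 mice at E14.5, per the design text (the age field of the labels reads embryonic day 14). There were 4 L3mbtl3 -/- (knockout) libraries and 3 wild-type libraries. L3mbtl3 encodes a protein with MBT repeats that the series title describes as interacting with Polycomb repressive complex 1. The labels do not say how the L3mbtl3 allele was made or how many embryos went into a library. No library is labelled heterozygous, although the growth protocol mentions such cells. The p-values measure only the spread between these libraries, which may be technical.

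The ATPase of each complex supplies the motor, and accessory subunits decide where it acts. BAF complexes change composition as the cortex forms. Progenitors use Actl6a, Phf10 and Ss18, and postmitotic neurons replace them with Actl6b, Dpf1 or Dpf3 and another Ss18 relative. NuRD joins a CHD ATPase to histone deacetylases, and ISWI complexes space nucleosomes. Mutations in the human forms of several of these genes, among them CHD7, CHD8, ARID1B and SMARCA2, cause neurodevelopmental disorders.

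A library was said to call a gene end where it listed a peak no more than 1 kb from the lower or upper limit of the gene span. Every count below is therefore a count of libraries with a peak, not of reads, and the depth of each library is unknown. The lists were very unequal, with 9827, 7111, 3366 and 17362 peaks in knockout libraries 1 to 4 and 7448, 11394 and 6458 in wild-type libraries 1 to 3. Knockout library 4 held 27.6% of all peaks and stood apart in what follows. Of 12 dorsal progenitor markers, 6 had an end peak in at least 1 library, where the share of all protein-coding genes was 23.6%. Between 1 and 3 of them had one per knockout library and between 0 and 2 per wild-type library. All 12 had a peak in the gene span or its 50-kb flanks in at least 1 library, as had 69.2% of all protein-coding genes. Pax6, Emx1, Lhx2, Nes, Vim and Fut4 (which makes the CD15 epitope) had no end peak in any library. None of 4 endothelial and 4 microglial markers had an end peak in any library. Of 4 interneuron markers, Gad2 had one in 2 of 4 knockout and 2 of 3 wild-type libraries, and Gad1, Dlx1 and Dlx2 had none. Of 4 meningeal markers, Dcn had one in 2 of 4 and 0 of 3, and Col1a1, Col1a2 and Foxc1 had none. Of 4 neuronal markers, Tubb3 and Dcx each had one in 1 of 4 and 0 of 3, and Neurod2 and Neurod6 had none. A peak in the span or flanks was found at 4 of 4 endothelial, 4 of 4 neuronal and 3 of 4 microglial markers. It was found at 3 of 4 interneuron and 2 of 4 meningeal markers, so such peaks were not particular to progenitor markers. The part of such cells in the results was not tested.

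Of the 62 remodeller genes, 26 (41.9%) had an end peak in at least 1 library, where the share of all protein-coding genes was 23.6%. At least 2 libraries called 15 of the 62 (24.2%, against 13.8% of all genes), and at least 4 called 6 (9.68%, against 6.52%). All 7 libraries called only Arid4b (1.61%, against 1.13%). The median gene, remodeller or not, was called in 0 libraries. The share of remodeller genes with an end peak was 11.3%, 12.9%, 4.84% and 35.5% in knockout libraries 1 to 4, and 16.1%, 16.1% and 8.06% in wild-type libraries 1 to 3. For all protein-coding genes the shares were 8.75%, 6.11%, 3.56% and 18% in the knockout libraries, and 7.40%, 11.1% and 6.63% in the wild-type libraries. The remodeller share thus lay between 1.22 and 2.18 times that of all genes, above it in all 7 libraries. These shares are descriptive and were not tested against other gene families.

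**Figure D1:**
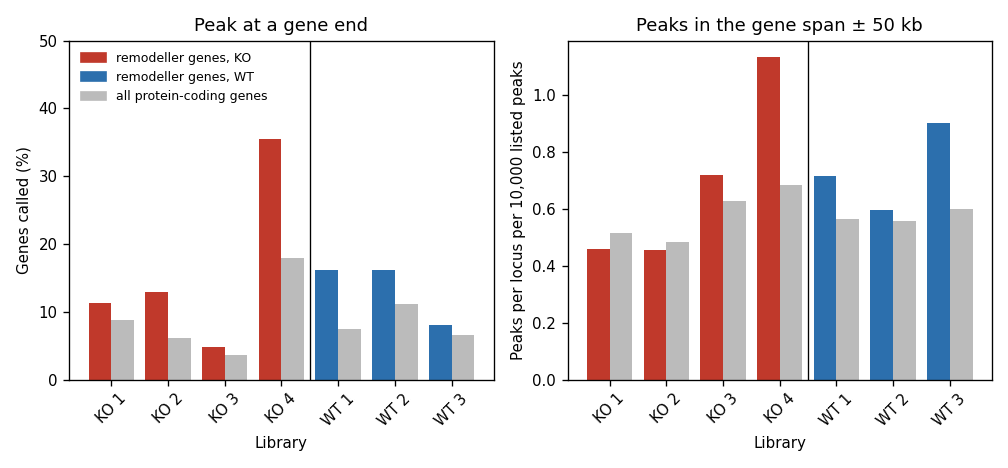
Left, percent of genes with an end peak, per library. Right, peaks in the gene span plus flanks of 50 kb, per locus and per 10000 peaks of the library's list. Coloured bars are the 62 remodeller genes (red, knockout; blue, wild-type) and grey bars all protein-coding genes. Knockout library 4 has the highest bars of both panels, at 35.5% and 1.13 peaks.

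The genes most often open at an end, called in at least 4 libraries, came from several complexes. All were open in both genotypes, which this rule nearly fixes. Only a call in 4 of 4 knockout and 0 of 3 wild-type libraries would have been otherwise. Arid4b, which encodes a DNA-binding subunit of the SIN3 histone deacetylase complex, was called in 4 of 4 knockout and 3 of 3 wild-type libraries. Its relative Arid4a was called in 3 of 4 and 3 of 3, as was Actl6a, the actin-related subunit of progenitor BAF that also serves INO80 and TIP60. Gatad2a, the scaffold that ties the CHD ATPase to the rest of NuRD, was called in 3 of 4 knockout and 2 of 3 wild-type libraries. Chd6, an ATPase of the CHD family, was called in 2 of 4 and 3 of 3, and Chd8, a CHD ATPase that binds at many active promoters, in 2 of 4 and 2 of 3. Each of these genes missed knockout library 3, the shortest list, except Arid4b.

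The promoter windows of the genes with RefSeq start annotation are shown to place these peaks on sequence, from 250 bases before to 50 after the start, 5′ to 3′ on the gene's strand (RefSeq, GRCm38.p6). Capitals mark matches on either strand to the 6 motifs searched, namely CCGGAAG (ETS), the palindromic NRF1 motif, GGGCGG (GC box), CCAAT (the CCAAT box), CAGCTG (an E-box) and, as another E-box, CAGATG. The first 5 windows belong to genes called in at least 4 libraries. Smarca2 and Smarca5 follow as ATPase genes called in libraries of 1 genotype only, and Smarca4 as the BAF ATPase of progenitors with no end peak in any library. Of several annotated starts, the one whose window met a peak in most libraries was taken, and the most upstream one on ties.
Arid4b: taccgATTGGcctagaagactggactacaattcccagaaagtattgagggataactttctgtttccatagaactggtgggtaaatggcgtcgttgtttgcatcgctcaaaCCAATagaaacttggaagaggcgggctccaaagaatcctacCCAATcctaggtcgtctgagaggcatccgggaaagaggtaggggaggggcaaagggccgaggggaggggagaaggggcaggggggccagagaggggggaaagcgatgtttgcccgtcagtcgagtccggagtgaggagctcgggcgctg
Actl6a: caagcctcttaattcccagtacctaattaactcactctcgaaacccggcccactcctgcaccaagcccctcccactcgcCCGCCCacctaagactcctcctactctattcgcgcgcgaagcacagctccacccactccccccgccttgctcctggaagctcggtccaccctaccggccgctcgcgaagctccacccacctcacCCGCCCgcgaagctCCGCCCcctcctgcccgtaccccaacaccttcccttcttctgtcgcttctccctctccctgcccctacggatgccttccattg
Gatad2a: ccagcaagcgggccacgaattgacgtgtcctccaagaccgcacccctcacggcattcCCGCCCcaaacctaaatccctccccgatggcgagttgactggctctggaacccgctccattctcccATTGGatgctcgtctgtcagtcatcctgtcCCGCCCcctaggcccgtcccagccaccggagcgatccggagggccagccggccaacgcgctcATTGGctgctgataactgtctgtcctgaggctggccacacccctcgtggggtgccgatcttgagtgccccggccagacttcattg
Chd6: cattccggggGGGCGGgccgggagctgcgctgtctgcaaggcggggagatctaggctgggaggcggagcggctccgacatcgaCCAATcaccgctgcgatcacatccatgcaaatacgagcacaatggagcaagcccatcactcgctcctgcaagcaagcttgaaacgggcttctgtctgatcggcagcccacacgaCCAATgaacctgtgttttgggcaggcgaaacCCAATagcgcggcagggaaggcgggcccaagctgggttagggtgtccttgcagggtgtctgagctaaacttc
Chd8: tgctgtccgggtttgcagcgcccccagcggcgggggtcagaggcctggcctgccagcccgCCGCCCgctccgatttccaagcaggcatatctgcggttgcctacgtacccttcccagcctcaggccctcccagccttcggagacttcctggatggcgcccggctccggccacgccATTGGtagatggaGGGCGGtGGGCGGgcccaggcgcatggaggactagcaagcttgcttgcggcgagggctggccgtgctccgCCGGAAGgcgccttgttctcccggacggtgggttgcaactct
Smarca2: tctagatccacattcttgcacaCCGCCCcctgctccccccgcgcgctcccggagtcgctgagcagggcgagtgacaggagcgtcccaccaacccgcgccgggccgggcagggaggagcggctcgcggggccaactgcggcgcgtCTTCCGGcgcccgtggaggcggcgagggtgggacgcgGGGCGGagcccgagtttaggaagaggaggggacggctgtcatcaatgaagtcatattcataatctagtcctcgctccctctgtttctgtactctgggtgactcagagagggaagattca
Smarca5: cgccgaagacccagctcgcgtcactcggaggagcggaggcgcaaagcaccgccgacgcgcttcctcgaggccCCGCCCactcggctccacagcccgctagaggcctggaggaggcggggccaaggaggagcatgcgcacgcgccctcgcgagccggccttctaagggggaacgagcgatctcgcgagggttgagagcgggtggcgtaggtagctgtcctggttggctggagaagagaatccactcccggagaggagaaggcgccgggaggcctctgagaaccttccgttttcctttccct
Smarca4: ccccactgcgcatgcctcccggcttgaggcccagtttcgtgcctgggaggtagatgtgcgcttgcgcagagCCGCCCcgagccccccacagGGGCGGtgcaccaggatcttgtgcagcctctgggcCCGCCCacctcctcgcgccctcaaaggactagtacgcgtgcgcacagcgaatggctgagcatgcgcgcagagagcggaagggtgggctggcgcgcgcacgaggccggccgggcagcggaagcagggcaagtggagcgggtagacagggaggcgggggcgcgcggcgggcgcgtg

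Arid4b stood on a window at chr13:14063534-14063833, plus strand, that met a peak in all 7 libraries. Counted from the start, the peaks began at −441 to −269 and ended at −108 to −77. They sat high in their own lists, at percentiles of −log10 q of 95.8, 88.8, 96.1 and 95.7 in knockout libraries 1 to 4 and 88.8, 97.0 and 81.9 in wild-type libraries 1 to 3, so that the ranks of the genotypes overlapped. The authors' fold enrichment of these peaks ran from 5.33 to 7.43. The merged region (chromosome 13, 14063343 to 14063707) also overlapped Ggps1, an isoprenoid synthesis gene, near its end, and the peak cannot be given to one of the neighbours. The window held 3 CCAAT boxes and no match to the other motifs.

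Actl6a (window chr3:32708296-32708595, plus strand) had peaks lying over its start in 3 knockout and 2 wild-type libraries. The peak of wild-type library 1 began 12 bases inside the gene. Their percentiles were 88.2, 27.4 and 60.6 in knockout libraries 1, 2 and 4 and 62.0, 74.9 and 66.1 in wild-type libraries 1 to 3, again overlapping. The window held 3 GC boxes. At Gatad2a (chr8:69996335-69996634, minus strand) the percentiles were 43.4, 15.3 and 41.8 in knockout libraries 1, 2 and 4 and 60.8 and 55.5 in wild-type libraries 1 and 2, with 2 GC boxes and 2 CCAAT boxes in the window. The wild-type ranks were the higher ones there, in the 5 libraries that had a peak. Ranks of lists of unequal length show no change in openness.

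Chd6 (chr2:161109037-161109336, minus strand) was called in knockout libraries 2 and 4, at percentiles of 53.3 and 95.1, and in wild-type libraries 1 to 3, at 34.9, 73.3 and 16.4. Its window held 3 CCAAT boxes and 1 GC box. Chd8 (chr14:52257711-52258010, minus strand) was called in knockout libraries 1 and 4, at 47.3 and 78.9, and in wild-type libraries 1 and 3, at 68.0 and 63.0. Its window held 3 GC boxes, 1 CCAAT box and 1 ETS match. Arid4a had its peaks at chromosome 12, 71015622 to 71016000, just inside the lower end of its span, at percentiles of 81.2, 43.7 and 81.2 in knockout libraries 1, 2 and 4 and 72.8, 40.5 and 64.3 in wild-type libraries 1 to 3. In Arid4a, Chd6 and Chd8 the ranks of the genotypes overlapped.

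**Figure D2:**
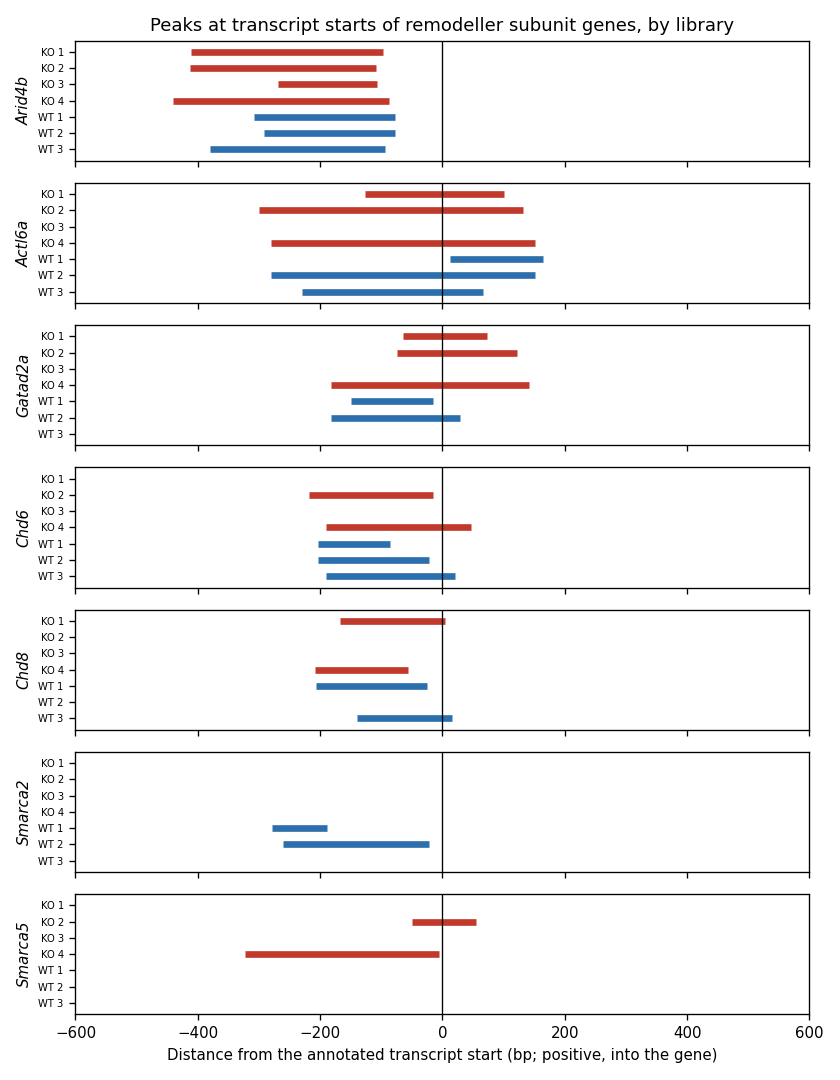
Extent of each peak (horizontal bars) around the annotated transcript start of 7 remodeller genes, 1 row per library (red, knockout; blue, wild-type), in bp with positive values inside the gene. The Arid4b peaks of all 7 libraries end before the start, at -108 to -77, and those of Smarca2 and Smarca5 come from libraries of 1 genotype.

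Across the family, promoter sequence was rich in CpG whether or not a peak was called. RefSeq windows were found for 47 of the 62 genes. Taking the most upstream start, the median GC content was 64.7% in remodeller windows and 56.3% in those of all 17491 protein-coding genes with an entry, with median observed-to-expected CpG ratios of 0.875 and 0.577. The 22 remodeller windows of genes with an end peak had a median GC of 64.3% and the 25 of genes without one 65.7%, with ratios of 0.862 and 0.877. The GC box was found in 39 of 47 remodeller windows (83.0%) and 46.3% of all windows, and the ETS match in 17.0% and 11.9%. The CCAAT box was in 38.3% and 39.2%, and NRF1 matches in 2.13% and 1.33%. CAGCTG was in 17.0% and 15.1%, and CAGATG in 8.51% and 14.9%. A peak met this window in 18 of the 47 genes (38.3%) and in 20.7% of all genes with an entry. Motif matches describe sequence only.

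**Figure D3:**
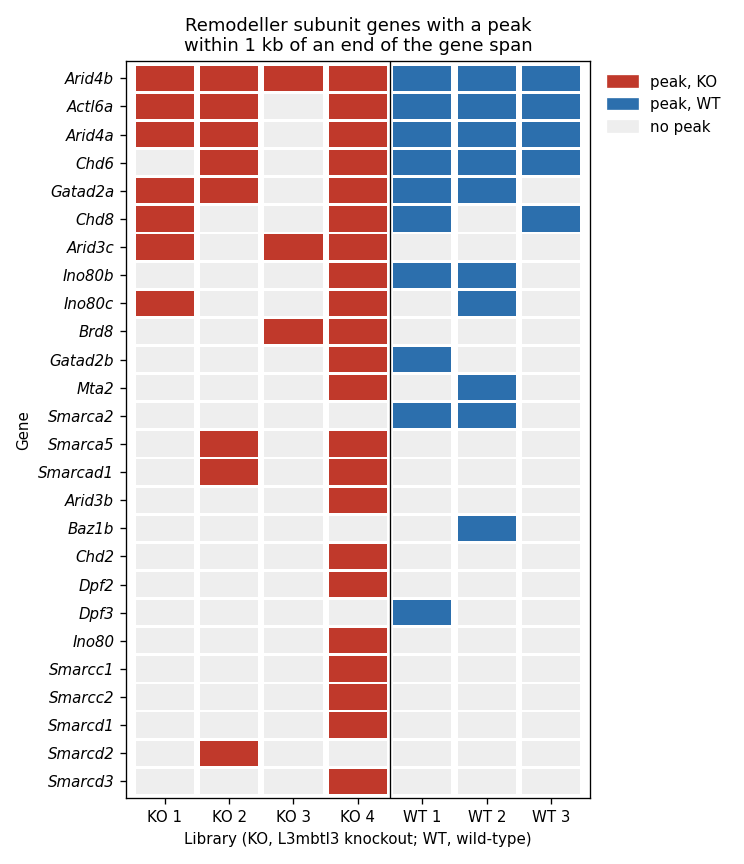
The 26 remodeller genes with an end peak (1 kb at most from a limit of the span) in at least 1 library, 1 row per gene and 1 column per library (red, peak in knockout; blue, peak in wild-type; grey, none). Of the 26 rows, 8 are filled by knockout library 4 alone.

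Between genotypes, no remodeller gene was called in every library of one and in none of the other, where 0.0274% of all protein-coding genes were called in 4 of 4 knockout and 0 of 3 wild-type libraries and 0.0183% in 0 of 4 and 3 of 3. Knockout and wild-type libraries called 16.1% ± 13.4 (SD, n = 4) and 13.4% ± 4.66 (SD, n = 3) of the 62 genes, a difference of 2.69 percentage points, less than the SD of each genotype. For all protein-coding genes the difference was 0.716 points. Without knockout library 4 the remodeller shares were 9.68% and 13.4%, a difference of −3.76 points. With every list trimmed to the length of the shortest by −log10 q they were 5.65% and 6.99%, a difference of −1.34 points. The direction therefore turned on 1 library and on list length.

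Of the 62 genes, 15 leaned to knockout, with a higher share of its libraries calling an end (24.2%, against 12.4% of all genes) and 10 leaned to wild-type (16.1%, against 10.1%). Arid4b was called in all, and 36 in none. Of the 15, the 8 genes Arid3b, Chd2, Dpf2, Ino80, Smarcc1, Smarcc2, Smarcd1 and Smarcd3 owed it to knockout library 4 alone. Exactly 1 library called 11 of the 62 (17.7%, against 9.86% of all genes). The share of all genes called by knockout library 4 alone was not counted. In Fisher's exact test per gene, 0 remodeller genes passed the Benjamini-Hochberg adjustment over the 5167 genes with a call, as did 0% of those genes. The smallest unadjusted p of a remodeller gene was 0.143, so 0 had an unadjusted p under 0.05. The design cannot give a p below 0.0286, so no single gene could pass the adjustment over 5167 genes unless many others reached that p.

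With the lists as deposited, the largest leanings were at Arid3c and Smarca2. With equal lists they shrank to 25 percentage points at Arid3c and 0 at Smarca2, and the largest among the named genes were −75 at Actl6a and −66.7 at Chd8. Arid3c, of the ARID3 family of DNA-binding proteins, had an end peak in knockout libraries 1, 3 and 4 and in no wild-type library (Fisher's exact p = 0.143, adjusted p = 1). This peak (chromosome 4, 41723196 to 41723321) lay beyond the 3′ end of the gene and close to an end of Dctn3, a dynactin subunit gene. Smarca2, one of the alternative BAF ATPases, had a peak at its start in 0 of 4 knockout and 2 of 3 wild-type libraries (Fisher's exact p = 0.143, adjusted p = 1). The 2 wild-type peaks ranked at percentiles of 43.1 and 27.2 and ran over −278 to −188 and −261 to −22 from the start, in the window at chr19:26604910-26605209, plus strand.

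Smarca5, the ISWI ATPase, was called in knockout libraries 2 and 4, at percentiles of 80.0 and 31.8, and in 0 of 3 wild-type libraries (Fisher's exact p = 0.429, adjusted p = 1). Its peaks covered chromosome 8, 80739404 to 80739782, over the window chr8:80739410-80739709 on the minus strand. Smarcad1, an SNF2-family ATPase, was likewise called in knockout libraries 2 and 4 and in no wild-type library. Brd8, a bromodomain subunit of TIP60, was called in knockout libraries 3 and 4 and in no wild-type library, in a region shared with an end of Kif20a. Chd6, at 2 of 4 and 3 of 3, was the only other gene whose shares differed by 50 percentage points or more. None of these passed the test.

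By complex, the BAF and PBAF genes were called at 9 of 21 ends in at least 1 library, of which 6 leaned to knockout and 3 to wild-type. Of all protein-coding genes, 23.6% were called, 12.4% leaned to knockout and 10.1% to wild-type. Of the 6, the 5 genes Dpf2, Smarcc1, Smarcc2, Smarcd1 and Smarcd3 were called by knockout library 4 alone. The 9 called genes were Actl6a, Dpf2, Dpf3, Smarca2, Smarcc1, Smarcc2 and the alternative Smarcd1, Smarcd2 and Smarcd3. The ATPase Smarca4 (window chr9:21615919-21616218, plus strand), the core subunits Smarcb1 and Smarce1 and the targeting subunits Arid1a, Arid1b and Arid2 were not called. The progenitor genes Phf10 and Ss18 and the neuronal Actl6b and Dpf1 had no end peak, and neither did Brd7 and Brd9. Dpf2 was called in knockout library 4 only and its neuronal relative Dpf3 in wild-type library 1 only. The BAF ends numbered 1, 2, 0 and 6 in knockout libraries 1 to 4 and 3, 2 and 1 in wild-type libraries 1 to 3.

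The counts of the other groups are likewise of genes called in at least 1 library, where the share of all protein-coding genes was 23.6%. Of the 8 NuRD genes, 3 were called. These were Gatad2a as above, Gatad2b in 1 of 4 knockout and 1 of 3 wild-type libraries, and the scaffold Mta2 in 1 of 4 and 1 of 3. Mta1, Mta3 and the ATPases Chd3, Chd4 and Chd5 were not. The Mta2 calls lay at different ends of the gene. Wild-type library 2 had its peak at the 5′ end, and knockout library 4 beyond the 3′ end, close to an end of Tut1. Peaks of knockout library 2 and wild-type libraries 2 and 3 in that second region lay more than 1 kb from the span. Of the 7 ISWI genes, Smarca5 and Baz1b were called, Baz1b in wild-type library 2 only, and Smarca1, Baz1a, Baz2a, Baz2b and Bptf were not. Of the 5 INO80 genes, Ino80b was called in 1 of 4 and 2 of 3 libraries, Ino80c in 2 of 4 and 1 of 3 and the ATPase Ino80 in knockout library 4, and Ino80d and Ino80e were not. Ino80b is 3.36 kb long, and its region was shared with an end of Wbp1. Of 7 other CHD genes, Chd2, Chd6 and Chd8 were called and Chd1, Chd1l, Chd7 and Chd9 were not. Among bromodomain genes outside BAF, Brd8 was called, and the acetyltransferase scaffold Brd1 and the BET gene Brd2 were not. Of 7 other ARID genes, Arid3b, Arid3c, Arid4a and Arid4b were called and Arid3a, Arid5a and Arid5b were not. Smarcad1 was called and Smarcal1, an annealing helicase of stalled forks, was not called at a limit of its span. A start annotated inside the Smarcal1 span did meet a peak (chromosome 1, 72583034 to 72583315), in 1 of 4 knockout and 2 of 3 wild-type libraries.

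Subunit genes outside the naming rule were read in the same way. Of 39 such partner genes, 17 had an end peak in at least 1 library and 2 in at least 4, and 8 leaned to knockout and 9 to wild-type. The shares of all protein-coding genes were 23.6%, 6.52%, 12.4% and 10.1%. Mbd3, the methyl-CpG-domain subunit of NuRD, was called in 4 of 4 knockout and 2 of 3 wild-type libraries, and Bicra, of the non-canonical BAF complex, in 2 of 4 and 3 of 3. Rbbp7, an X-linked histone chaperone of NuRD and other complexes, was called in 0 of 4 and 3 of 3, a pattern known from these data when the partners were listed. Embryo sex was not analysed here. No adjusted p of any gene passed the threshold.

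The wider loci, each the gene span plus flanks of 50 kb, held 296 peaks over the 7 libraries. Remodeller genes are long, with a median span of 55.2 kb against 17.2 kb for all protein-coding genes, and a longer span meets more peaks by construction. A peak was found in the locus of 57 of the 62 genes in at least 1 library (91.9%, against 69.2% of all genes), and in all 7 libraries for 4, namely Arid4b, Gatad2a, Ino80c and Smarcc2 (6.45%, against 6.9%). Per Mb of locus, remodeller genes held 4.25 ± 4.67 peaks in knockout and 3.40 ± 0.421 in wild-type libraries, and all genes 3.79 ± 2.92 and 3.25 ± 0.908 (SD, n = 4 and 3). Remodeller density was the lower in knockout libraries 1 to 3 (2.57, 1.84 and 1.38, against 3.41, 2.31 and 1.43). It was also lower in wild-type library 2 (3.86 against 4.29). It was higher in knockout library 4 (11.2 against 7.999) and wild-type libraries 1 and 3 (3.03 and 3.31, against 2.84 and 2.61). The higher knockout mean of remodeller genes thus rested on knockout library 4. No peak was found in any library at Smarce1, Brd1, Ino80d, Baz1a or Chd1. A locus peak in exactly 1 library was found for 12 genes (19.4%, against 18.7% of all genes). For 11 of the 12 it came from knockout library 4, the longest list. The share of all genes with a locus peak in that library alone was not counted.

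Knockout libraries 1 to 4 had 28, 20, 15 and 122 peaks in the 62 loci, and wild-type libraries 1 to 3 had 33, 42 and 36. Knockout library 4 gave 41.2% of these peaks against 27.6% of all listed peaks, a share that also counts peaks outside gene loci. Unscaled, knockout library 4 held 1.97 peaks per remodeller locus and 1.18 per locus of all protein-coding genes. The other libraries held 0.242 to 0.677 and 0.211 to 0.634. Scaled to 10000 listed peaks, the remodeller loci held 0.460, 0.454, 0.719 and 1.13 peaks each in knockout libraries 1 to 4, and 0.715, 0.595 and 0.899 in wild-type libraries 1 to 3. All protein-coding loci held 0.482 to 0.682 in knockout and 0.557 to 0.599 in wild-type libraries. The remodeller values were lower than those of all genes in knockout libraries 1 and 2 and higher in the other 5. These values per locus do not allow for the longer spans of remodeller genes. The means were 0.691 ± 0.320 in knockout and 0.736 ± 0.153 in wild-type libraries (SD, n = 4 and 3). Unscaled, they were 0.746 ± 0.819 and 0.597 ± 0.0739 peaks per locus, and without knockout library 4 0.339 and 0.597. The ranges overlapped in the first case. In the last, the 3 knockout libraries, at 0.242 to 0.452, lay below the 3 wild-type libraries, at 0.532 to 0.677, but not once list length was scaled out.

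An exact permutation test of the mean number of locus peaks between the genotypes gave 0 remodeller genes with an adjusted p under 0.05 and 0 with an unadjusted p under 0.05, where 0% of the 15150 genes with a locus peak had the adjusted and 0.33% the unadjusted one (0.891% after scaling by list length). The smallest p of a remodeller gene was 0.143, and 0.114 after scaling by list length. With 4 and 3 libraries no p can be below 0.0286, so no single locus could pass the adjustment over so many genes unless many others reached that p. The mean was higher in knockout libraries for 35 genes (56.5%, against 40.6% of all genes) and lower for 21 (33.9%, against 26.2%). Scaled by list length it was higher for 30 (48.4%, against 36.9%) and lower for 27 (43.5%, against 32.4%).

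Chd7, the CHD ATPase mutated in CHARGE syndrome, leaned most to wild-type by the mean of all libraries. Its locus on chromosome 4 had 1, 0, 1 and 6 peaks in knockout libraries 1 to 4 and 2, 2 and 5 in wild-type libraries 1 to 3. Knockout library 4 was thus the highest of all 7 and the other 3 knockout libraries the lowest (difference of means −1, exact permutation p = 0.60, adjusted p = 1). The difference was 0 without wild-type library 3, −2.33 without knockout library 4 and −0.333 without knockout library 2. Inside the gene, the region from 8811081 to 8811327 was called in 1 of 4 knockout and 3 of 3 wild-type libraries. The region from 8850451 to 8850722 was called in 2 of 4 and 3 of 3, and a further one from 8799632 to 8799820 in 2 of 4 and 1 of 3. No library called an end of Chd7, so its open sites were all away from the ends of the span.

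Arid4b held 3, 2, 1 and 4 peaks in knockout libraries 1 to 4 and 2, 3 and 3 in wild-type libraries 1 to 3, the most of any remodeller gene. Apart from the start, a region 23862 bp outside the span, beside Tbce (chromosome 13, 14039582 to 14039747), was called in 2 of 4 knockout and 3 of 3 wild-type libraries. A region inside the gene (14113750 to 14114445) was called in 3 of 4 and 2 of 3, and not all of its peaks overlapped each other. Chd2, a CHD ATPase tied to epilepsy, held 2, 1, 0 and 6 peaks in knockout and 2, 3 and 2 in wild-type libraries. Its region from 73584357 to 73584574 on chromosome 7, 42611 bp outside the span, was called in 1 of 4 knockout and 3 of 3 wild-type libraries, and that from 73558617 to 73558843 in 2 of 4 and 3 of 3.

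Actl6a held 2, 1, 0 and 3 peaks in knockout and 3, 2 and 2 in wild-type libraries (difference of means −0.833, or −0.333 without knockout library 3; exact permutation p = 0.514, adjusted p = 1). Gatad2a held 2, 1, 2 and 3 in knockout and 2, 2 and 1 in wild-type libraries, and Ino80c 2, 1, 1 and 3 and 1, 3 and 1. Arid4a held 1, 2, 0 and 2 in knockout and 1, 3 and 1 in wild-type libraries. Smarcc2, a core BAF scaffold, held 1, 1, 1 and 5 in knockout and 1, 1 and 3 in wild-type libraries. The genotypes overlapped at these 5 loci.

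The loci of Smarcd1, Arid3c, Smarca5 and Smarcad1 leaned most to knockout by unscaled counts, and none had a peak in any wild-type library. Smarcd1, a BAF accessory subunit, held 1, 0, 1 and 3 peaks in knockout libraries 1 to 4 and 0 in each wild-type library (difference of means 1.25, exact permutation p = 0.143, adjusted p = 1). The difference was 0.667 without knockout library 4 and 0.5 with equal lists. Its shared region (chromosome 15, 99725387 to 99725677) was called in 3 of 4 knockout and 0 of 3 wild-type libraries and lay beside the ends of Cox14 and Gpd1, 11392 bp from Smarcd1. Arid3c held 2, 0, 1 and 1 peaks, Smarca5 0, 1, 0 and 3 and Smarcad1 1, 1, 0 and 2 in the knockout libraries, each with a difference of means of 1. Without knockout library 4 the Smarca5 difference was 0.333. Per 10000 listed peaks, Brd8 (1.26), Smarcad1 (0.894), Arid5b (0.882) and Baz1b (0.882) also had larger differences than Smarca5 (0.784). In the other direction Chd3, a NuRD ATPase, held 0 in each knockout library and 0, 1 and 1 in wild-type libraries 1 to 3, and the 2 peaks did not lie at the same place. At each of these loci both genotypes had a library at 0. No remodeller locus had more peaks in every knockout than in every wild-type library (0.0914% of all genes did) or fewer (0.146%).

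**Figure D4:**
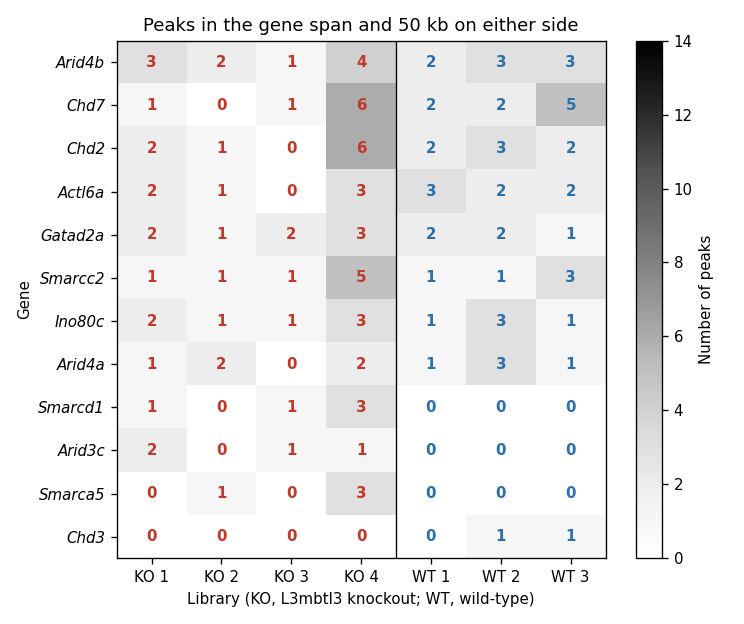
Number of peaks in the gene span plus flanks of 50 kb for 12 remodeller genes, by library (red numbers, knockout; blue numbers, wild-type). Darker cells hold more peaks. Knockout library 4 has 6 peaks at Chd7 and at Chd2, and Smarcd1, Arid3c and Smarca5 have 0 in each wild-type library.

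Merging peaks that overlapped by at least 1 bp gave 146 regions in the 62 loci, of 25623 in the genome. Of these, 80 (54.8%) were called in 1 library only, where the share of all regions was 48.4%. Knockout library 4 was the caller in 60 of the 80, and its part in such regions genome-wide was not counted. Regions called in at least 4 libraries made up 15.8% of those in remodeller loci and 25.0% of all regions, and those called in all 7 made up 0.685% and 5.06%. Of the 146, 27 lay at a gene end, 40 inside the gene and 79 in the flanks, and 7, 6 and 10 of them were called in at least 4 libraries. Of the 27 at ends, 20 lay at the 5′ end, 3 at the 3′ end and 4 at genes with no strand in the promoter table, and 8 were as close to the end of another gene. No region in a remodeller locus was called in 4 of 4 knockout and 0 of 3 wild-type libraries, or the reverse. Genome-wide 28 and 34 regions were.

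Some widely called regions away from the remodeller ends lay beside neighbouring genes. A region 18806 bp beyond Mta1 (chromosome 12, 113156012 to 113156244), close to an end of Tedc1, was called in 3 of 4 knockout and 3 of 3 wild-type libraries. A region 8085 bp outside Baz2a (chromosome 10, 128083013 to 128083285), beside Atp5b, was called in 2 of 4 and 3 of 3. By contrast, regions inside Baz2b (chromosome 2, 60126817 to 60127041), an ISWI-associated bromodomain gene, and inside Smarca2 (chromosome 19, 26748201 to 26748424) lay beside no end of another gene. They were called in 2 of 4 knockout and 3 of 3 wild-type libraries and in 3 of 4 and 2 of 3. From the annotated start of its gene, the Baz2b region lay at −1077 bp, just upstream, and the Smarca2 region at 143041 bp, downstream.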

How the data were processed

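The data were 7 lists of broad peaks, 1 per ATAC-seq library, so peaks had been called per library and replicates were not pooled. Per the submitters' processing notes the build was GRCm38 and the tools included MACS2, Bowtie2 2.3.5.1 and SAMtools 1.9. Their settings and any transposase shift: not given in the sources used here. For every peak the deposited values are a fold enrichment, a −log10 p, a −log10 q and a whole-number score, all the authors' own. Fold and q served to describe or rank a list's own peaks, and p and score were not used. There are no counts in the lists, so depth and counting error are unknown.

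Gene spans came from a RefSeq table (GRCm38.p6), and starts, strands and sequences from a RefSeq promoter table. Peaks and windows overlapped by at least 1 bp, and positions count from 1. Python 3.11.15 with SciPy 1.17.1 gave Fisher's exact tests (two-sided) of end calls and two-sided exact permutation tests of locus peaks, both over all protein-coding genes with Benjamini-Hochberg adjustment over those with a call or a locus peak. Both were tested on simulated data. The family, its complexes and partner lists were chosen with earlier results of these data known.

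Genes named were those called in at least 4 libraries, those whose shares differed by at least 50 percentage points, the 8 with most locus peaks, the 3 with the largest locus difference per direction and those with a region called in all 7 libraries. Genes called in fewer libraries, Arid5b, Mta1, Baz2a and Baz2b were named after their values were seen. Same-numbered libraries were not treated as pairs. Alternatives covered windows, peak threshold, list length, overlap, flanks and each library. Annotated starts only were added after seeing the data.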

Additional observations from a re-analysis of the deposited data

Results flagged for a closer look

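Knockout library 4 lay far from the other 3 knockout libraries in 4 of 17 values examined in this way. For 1 value taken alone chance gives about 1 in 20. The 17 are not separate values, since peaks per Mb are peaks per locus over a constant and the single loci are parts of both. The quantity given is its gap to the nearest other library over the whole range of the 4, judged against Dixon's 95% critical value. For peaks per remodeller locus the ratio was 0.879 (0.452, 0.323, 0.242 and 1.97 peaks in knockout libraries 1 to 4), and for peaks per Mb of these loci 0.879 as well. At the Chd7 locus it was 0.833 (1, 0, 1 and 6 peaks) and at the Smarcc2 locus 1 (1, 1, 1 and 5 peaks). Scaled to 10000 listed peaks the family's ratio was 0.610, below the critical value.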

How the results depend on the processing

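The count of remodeller genes with an end peak in at least 1 library was 26, between 18 and 26 without single libraries, 28 with ends of 2.5 kb and 26 with at least 50% of a peak in the window. It was 19 of 47 with annotated starts only. It was 11 with equal lists and 5 (Actl6a, Arid4b, Chd2, Chd6 and Gatad2b) at −log10 q of at least 5, settings that drop peaks by construction. The shares there were 17.7% and 8.06%, against 10.7% and 4.19% of all protein-coding genes, which thus fell as well. With ends of 2.5 kb and with 50% overlap they were 45.2% and 41.9%, against 27.5% and 23.3%. Without single libraries they lay between 29.03% and 41.9%, against 17.6% to 23.3%. For annotated starts only, the share among all genes with an entry was not counted. Genes called in every library numbered 1, 0 at −log10 q of at least 5, and between 1 and 3 without single libraries, the highest without knockout library 3. Genes separating the genotypes numbered 0, and between 0 and 1 without single libraries (Arid3c without knockout library 2, Smarca2 without wild-type library 3). No alternative gave a remodeller gene past an adjusted test, but the designs hardly allowed one. Without single libraries the smallest possible p of Fisher's exact test was 0.0667 or 0.1, so no gene could pass. In the other settings it was 0.0286, which could pass the adjustment only if many genes reached it. With equal lists, Chd8 alone of the remodeller genes reached an unadjusted exact permutation p of 0.0286 for locus peaks, the smallest the design allows. The share of all genes reaching it with equal lists was not counted. As deposited, the Chd8 locus held 1, 0, 0 and 4 peaks in knockout and 2, 1 and 2 in wild-type libraries. The difference of means was −0.417 (exact permutation p = 0.857).

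The difference in end shares turned to −1.34 points with equal lists and −1.77 with annotated starts only, and lay between −3.76 and 6.45 without single libraries, negative only without knockout library 4. The difference in peaks per locus turned to −0.0457 with equal lists and −0.0448 per 10000 listed peaks, and lay between −0.258 and 0.317 without single libraries. The causes were not tested. With a replicate block of pairs 1 to 3, which leaves out knockout library 4, the differences were −3.76 points and −0.258 peaks per locus. Deviations of same-numbered libraries from their group means correlated at −0.0249, 0.0635 and 0.0613 across genes. Differently numbered libraries gave −0.125 to 0.0966. With so few libraries per group, these values cannot decide whether the numbers mark pairs. The block leaves out the same library as the setting without knockout library 4 and gave the same differences.

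Of 289 values of named genes under alternatives, 26 changed sign. Values that started at 0 or fell to 0 are not among them. At −log10 q of at least 5, Actl6a and Chd6 ends turned to 25 points, the Actl6a, Arid4b and Chd2 loci to 0.25 and Ino80c to −0.333. At that threshold Arid4b ends moved from 0 to 66.7 points. The ends of Arid3c, Arid4a, Brd8, Chd8, Gatad2a, Smarca2, Smarca5 and Smarcad1 fell to 0. With equal lists, Chd6 ends turned to 16.7 and Gatad2a ends to −33.3 points, Ino80c to −0.75 and Smarcc2 to −0.167. Flanks of 10 kb turned Arid4b to 0.0833 and Chd2 to 0.667, and of 100 kb Chd2 to 0.333. Scaling turned Smarcc2 to −0.220. The block turned Ino80c to −0.333 and Smarcc2 to −0.667. Without single libraries the Chd2 locus lay between −1.33 and 0.667, Arid4b between −0.667 and 0.333, Arid4a between −0.75 and 0.25, Ino80c between −0.333 and 0.75, Smarcc2 between −0.667 and 1 and Gatad2a ends between −25 and 33.3 points.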
